A study of Mus musculus with 5 samples.

Results

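Type X collagen and 4 genes tied to the last stage of cartilage cell life were followed in cultured rib chondrocytes, the cartilage-forming cells, of the mouse. The genes were Col10a1, Mmp13, Panx3, Mef2c and Mef2d, taken by name, with every probe set that the platform annotation gives to one of these symbols alone. This gave 13 of the 45101 probe sets on the array: 1 for Col10a1, 1 for Mmp13, 3 for Panx3, 5 for Mef2c and 3 for Mef2d. All 5 genes were among the 11075 of 18193 genes bright enough to be compared, although 2 of the 13 probe sets, 1 of Panx3 and 1 of Mef2d, were dimmer than that filter.

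The cells were freed with collagenase and trypsin from the ribs of FVB embryos, gestational age 18.5 days, and plated at high density on gelatin. All groups shared this strain and age and a serum-containing medium with ascorbic acid and beta-glycerolphosphate, and no genotype or drug was varied. The 5 groups were days 2, 6, 9, 12 and 15 of culture, with 1 single-colour oligonucleotide array each, and the question was how expression differed with time. No comparison of 2 days has a replicate check, since there was 1 array for each. The p-values below come from a straight line fitted on day, and weigh its slope against the departure of these arrays from that line. A bend in the course and noise both add to that departure, and the fit pools part of the variance over all genes. The labels do not say whether the dishes shared a cell isolate, so the noise may be technical.

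Before they die or become bone-forming cells, growth plate chondrocytes enlarge, a stage called hypertrophy. They then secrete type X collagen, a short-chain network collagen that is the standard marker of the stage, and later collagenase, which opens the matrix to vessels and bone. MEF2 transcription factors, held back by class IIa histone deacetylases such as HDAC4, and RUNX factors switch this programme on. The parathyroid hormone-related peptide pathway and SOX9 delay it. Osteoblasts share much of the late programme, including Mmp13 and Panx3.

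The promoter letters of Col10a1 and Mmp13 are shown because these genes had opposite courses from day 2 to day 9. Each run is the 250 bases before the RefSeq start site, on the plus strand of GRCm38.p6, with capitals for matches to the motifs searched.
Col10a1, chr10:34389731-34389980: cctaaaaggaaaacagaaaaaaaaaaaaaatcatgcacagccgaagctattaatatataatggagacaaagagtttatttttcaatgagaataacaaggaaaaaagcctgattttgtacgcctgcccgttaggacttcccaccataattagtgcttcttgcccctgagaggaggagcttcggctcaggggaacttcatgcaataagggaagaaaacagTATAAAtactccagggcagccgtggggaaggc
Mmp13, chr9:7272264-7272513: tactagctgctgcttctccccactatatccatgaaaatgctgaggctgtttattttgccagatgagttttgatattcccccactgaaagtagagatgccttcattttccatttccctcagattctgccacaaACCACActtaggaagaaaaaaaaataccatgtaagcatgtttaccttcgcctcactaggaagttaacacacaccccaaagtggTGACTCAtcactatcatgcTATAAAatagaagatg

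Both strands were searched for the RUNX core TGTGGT, the AP-1 letters TGANTCA, the TATA box letters TATAAA and the MEF2 consensus. The matches did not overlap. The Col10a1 run held TATAAA, from base 32 to base 27 before the start site. The Mmp13 run held the RUNX core on the minus strand, where the plus strand reads ACCACA, from base 118 to base 113 before the start. It also held the AP-1 letters TGACTCA from base 35 to base 29 and TATAAA from base 16 to base 11. Among 32851 RefSeq promoter entries cut to the same length, 14.0% held the RUNX core, 6.75% the AP-1 letters, 12.4% TATAAA and 0.508% the MEF2 consensus, which neither run held. A match is a description of letters and says nothing of use. Of the 5 genes, 4 had a promoter entry, and the 3 entries of Mef2c and 1 of Mef2d held neither the RUNX core nor the MEF2 consensus. Of the Mef2c entries, 1 held the AP-1 letters, from base 137 before its start, and the other 2 held TATAAA on the minus strand, from base 107 and base 22, while the Mef2d entry held none of the motifs.

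Values are probe-set intensities on a linear scale, scaled by the authors to a common array mean. Intensities under 73.1, the 40th percentile of all values, are treated as a floor in every fold and log2 value, and a fold against the floor is written as "at least". A gene is represented by its brightest probe set. Levels of different probe sets are not comparable with each other, so only changes over time are compared. In these bulk samples, fewer cells of a type and less RNA per cell cannot be told apart.

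Median intensity ranged from 106 to 118 over the 5 arrays, 58.8% to 61.9% of probe sets reached the floor, and 3' over 5' signal of the Actb control spots ranged from 1.17 to 1.27. All 12 chondrocyte markers looked up, among them the type II collagen gene Col2a1, were measured, and their summed intensity was 141772 on day 2 and then 139604, 84180, 42608 and 58298. Of the 12, 9 were down by 2-fold or more on day 15, while Comp was 15.1-fold above day 2 and Matn1 read 745 against 213. Of 10 osteoblast markers 7 could be read, all of them past the filter. Their sum was 1438 at day 2 and then 18571, 59802, 93727 and 123853. Most of the day 6 sum was type I collagen, with Col1a1 at 7029 and Col1a2 at 10351.5. At day 6, 3 of the 7 were up and 0 down by 2-fold or more (10.2% and 5.7% over all genes). Alpl read 126 at day 2 and 69.8 at day 6, and Phex 109 and 9.98, both below the floor at day 6. By day 15 all 7 were up by 2-fold or more (16.2% up and 11.6% down over all genes). The sum of 6 adipocyte markers was lowest at day 2, at 3329, and highest at day 12, at 101987. The osteoblast sum was higher on each later day, as were Mmp13, Panx3 and Mef2c below, and its part in their courses was not tested.

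**Figure D1:**
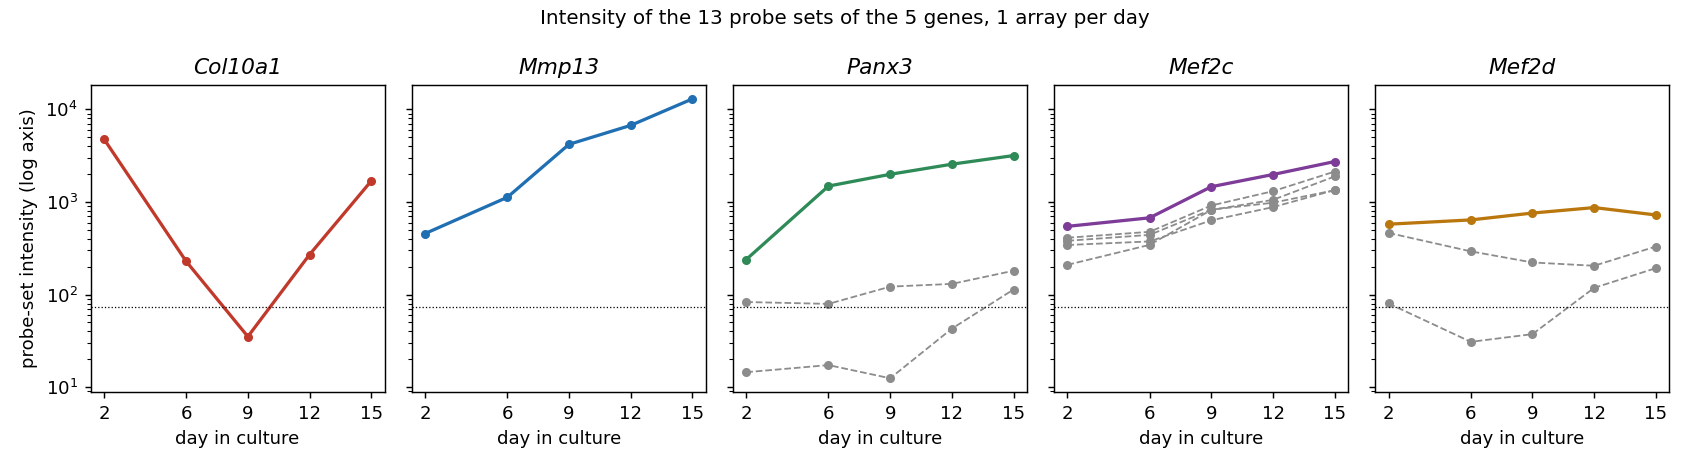
Intensity (log axis) of the 13 probe sets against day in culture, 1 point per array, 1 panel per gene. Coloured solid lines are the brightest probe set of each gene, grey dashed lines the others, and the dotted line is the floor of 73.1. Col10a1 is lowest at day 9, Mmp13 and all 5 Mef2c lines are higher at each later day, and the probe sets of Panx3 and Mef2d differ among themselves.

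Col10a1, the type X collagen gene, was high on the first array, lost by day 9 and partly regained by day 15. Its single probe set (1422253_at) read 4800.4 at day 2 and then 228, 35.1, 270.1 and 1686 on days 6, 9, 12 and 15. Runs of 5 values below keep this order of days. Day 2 was the highest day, day 9 lay below the floor, and days 6 and 12 lay close together on either side of it. Against day 2 the gene was down 21.0-fold by day 6 and at least 65.7-fold by day 9, where 15.1% of all genes were up and 10.3% down by 2-fold or more. It regained at least 3.69-fold from day 9 to day 12, a step at which 1.72% of genes were up and 1.51% down by 2-fold or more, and 6.24-fold from day 12 to day 15, where 4.23% were up and 3.92% down. At day 15 it remained 2.85-fold below day 2.

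A straight line does not describe that course. The limma slope of Col10a1 on day was -0.11 ± 0.19 (SE, 5 arrays) on the log2 scale per day, with an adjusted p of 0.744. Without the day 2 array the slope took the other sign, 0.35 per day, with an adjusted p of 0.424.

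The size of the dip was compared with that of every other gene. For each gene, the lowest of days 6, 9 and 12 was set against the lower of days 2 and 15. A drop of at least 2-fold below both ends was found in 327 of 11075 genes, 2.95%. Col10a1 had the deepest drop of all, at least 23.1-fold, 4.53 on the log2 scale. The genes next in depth were Nudt6 at 2.99, Stc2, a stanniocalcin gene, at 2.87 and Evi2a at 2.84. Just 1 gene, Col10a1 itself, dropped by 16-fold or more, 0.00903% of genes. This measure was chosen after the course of Col10a1 had been seen, so its rank is a description with no test.

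The depth rests on the 3 arrays that define it. Without day 2 it was at least 3.12-fold, 22nd among genes, without day 15 at least 3.69-fold, 4th, and without day 9 it was 7.39-fold, 2nd. With the floor lowered to the 20th percentile it was 48.0-fold, and with the floor at the 60th percentile it was at least 9.31-fold, the deepest of all genes in both cases.

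**Figure D2:**
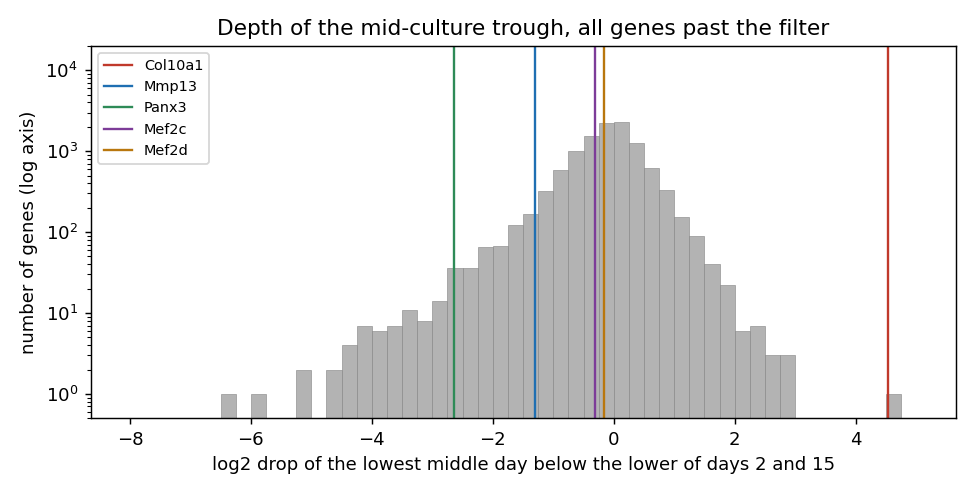
Number of genes (log axis) by the log2 drop of the lowest middle day (6, 9 or 12) below the lower of days 2 and 15, over 11075 genes. Coloured lines mark the 5 genes, and values below 0 mean that no middle day lay below both ends. Col10a1 stands alone at 4.53, and the other 4 genes lie below 0.

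The genes whose course was closest to that of Col10a1 were found by the root mean square (RMS) difference of mean-centred log2 intensity over the 5 arrays, among 10701 genes with an official symbol. They were Rgs16 at 0.78, Anxa8 at 0.85, F13a1 at 0.90 and Ptpre at 0.93. Rgs16, which encodes a regulator of G protein signalling, read 1314 at day 2 and then 32.2, 84.4, 99.8 and 475. Anxa8, an annexin gene, read 6458, 1159, 301, 559 and 1952. F13a1, the coagulation factor and transglutaminase chain that crosslinks proteins, read 1403 at day 2, between 135 and 145 on the 3 middle days and 700 at day 15. Ptpre, a tyrosine phosphatase gene, read 1194 first, 67.3 on day 9 and 265 last. By their brightest probe sets all 4 were high at day 2, low on the middle days and partly regained at day 15. At day 15 against day 2, Ptpre was 0.222-fold by that probe set and 0.742-fold by its other. The RMS differences were larger than those found for the other members.

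The closest relatives of type X collagen went another way. Col8a1 and Col8a2 encode the type VIII chains, which with type X make up the short-chain network collagens. Col8a1 read 627 at day 2 and then 901, 1741, 2529 and 2949, 4.70-fold higher at the end and between 2.38-fold and 4.70-fold by its 3 probe sets. Col8a2 read 108 at day 2 and then 553, 844, 1432 and 1257, 11.6-fold higher at day 15. Neither had a trough, and their limma adjusted p for a rising line was 0.0651 and 0.0761.

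Mmp13, the collagenase gene of hypertrophic cartilage and osteoblasts, was higher on every later array. Its single probe set (1417256_at) read 456 at day 2 and then 1124, 4198, 6726 and 12995. The steps were 2.47-fold, 3.74-fold, 1.60-fold and 1.93-fold, so the largest came between days 6 and 9, the interval in which Col10a1 reached its lowest value and 5.87% of genes were up and 4.06% down by 2-fold or more. Being higher at each step and at least 2-fold higher in total was seen in 332 genes, 3% of those tested. At day 15 Mmp13 was 28.5-fold above day 2, a comparison in which 16.2% of genes were up and 11.6% down by 2-fold or more.

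The slope of Mmp13 was 0.38 ± 0.031 (SE, 5 arrays) on the log2 scale per day, with a limma adjusted p of 0.0399. It was 5th in order of p among all genes. It was 1 of 6 genes with a rising line at an adjusted p under 0.05, 0.0542% of genes, and 0 genes had a falling line, against 1590 rising and 1410 falling at an unadjusted p under 0.05. The slope stayed between 0.37 and 0.41 when any 1 array was left out, but the adjusted p then ranged from 0.0674 to 0.269, so the call needed all 5 arrays.

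The course of Mmp13 was matched closely by 4 genes. Itgbl1, which encodes a secreted integrin beta-like protein, differed from it by an RMS of 0.14 and read 39.4 at day 2 and then 176, 616, 905 and 2343. Cd200, the gene of a membrane glycoprotein, differed by 0.21, Ppp1r3b, a glycogen-targeting phosphatase subunit, by 0.23 and Rgcc, a regulator of cell cycle, by 0.30. At day 15 against day 2 they were at least 32.1-fold, at least 23.7-fold, 19.3-fold and 21.2-fold higher. Itgbl1, Cd200 and Rgcc each had a limma adjusted p of 0.0350 and Ppp1r3b had 0.0651.

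The other collagenase genes gave little signal. Mmp8, the neutrophil collagenase, lay below the floor on all 5 days, between 3.25 and 66.7. Mmp1a, the mouse counterpart of interstitial collagenase, lay below it on 4 days and read 109.6 at day 12. Both were dimmer than the filter and have no fold here.

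Panx3, the gene of a channel-forming membrane protein of hypertrophic chondrocytes and osteoblasts, was already far above its first value by day 6. Its brightest probe set (1456073_s_at) read 239 at day 2 and then 1486, 1991, 2560.05 and 3173. The first step was 6.22-fold, the later ones between 1.24-fold and 1.34-fold. In that step 10.2% of genes were up and 5.7% down by 2-fold or more. Panx3 was therefore already up on the array where Col10a1 had lost most of its signal.

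The other Panx3 probe sets were dim and later. One (1432860_at) read 83.0, 79.2, 122, 130.3 and 181, a 2.18-fold difference between the end days. The last (1454387_at) lay between 12.5 and 42.8 on days 2 to 12, below the floor, and read 113 at day 15. All 3 were higher at day 15 than at day 2, but the early difference was seen by the brightest alone. In the array maker's naming, the "s" in that probe set's name marks probes that match more than one transcript, so its signal may not be of Panx3 alone. The slope was 0.27 ± 0.056 (SE, 5 arrays) on the log2 scale per day, with a limma adjusted p of 0.0784. With the mean over all 3 probe sets, Panx3 was at least 3.55-fold higher at day 15.

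The genes nearest to Panx3 in course were Rarres1 (RMS 0.099), Fkbp7 (0.13), Ccdc80 (0.15) and Cd59a (0.17). Rarres1, a retinoid-responsive gene, read 181 at day 2 and then 1115, 1360.0, 1663 and 2472. Fkbp7, which encodes a prolyl isomerase of the endoplasmic reticulum, was 11.7-fold higher at day 15 (1.00-fold by its other probe set, at the floor on both days). Ccdc80, a secreted matrix protein gene, was 10.9-fold higher and Cd59a, a complement inhibitor gene, 11.4-fold higher. Each had its largest step between days 2 and 6.

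Panx1, the widely expressed relative, read 307 at day 2 and then 85.4, 259, 127 and 14.8. It went down and up with no steady course and ended at least 4.20-fold below day 2, the opposite side from Panx3. Panx2 lay below the floor on 4 days and read 103.6 at day 9, and it was dimmer than the filter.

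**Figure D3:**
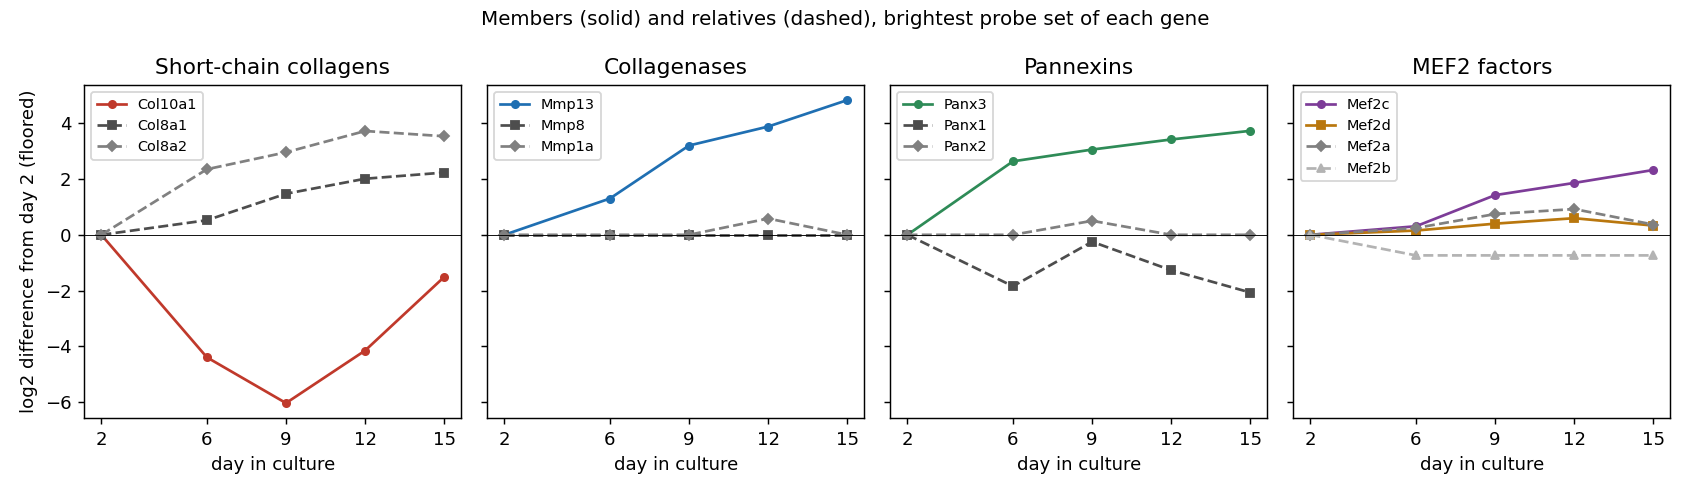
Log2 difference from day 2 (floored intensity) against day in culture for the 5 genes (solid) and their relatives (dashed), 1 panel per family, brightest probe set of each gene and 1 array per day. Col10a1 and the type VIII collagen genes lie on opposite sides of day 2, Mmp13 and Panx3 alone end above day 2 among the genes measured in their families, and Mef2c ends highest of the MEF2 genes.

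Mef2c, the MEF2 factor needed for hypertrophy in mouse cartilage, was higher on each later array by every one of its probe sets. The brightest (1421027_a_at) read 545 at day 2 and then 674, 1462, 1981 and 2735, 5.02-fold higher at the end. Little of this came by day 6, at 1.24-fold, and the largest step, 2.17-fold, lay between days 6 and 9. The probe set with the largest difference (1451507_at) read 209, 344, 820.5, 1055 and 1888, 9.02-fold higher at the end, and the smallest difference was 3.52-fold. The log2 difference between days 15 and 2 was 2.33 ± 0.53 (SD over 5 probe sets, read on the same 2 arrays).

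Being higher at every step by all probe sets was uncommon. Of 4315 genes with 3 or more probe sets, 6 had all of them higher at each of the 4 steps, 0.139%, and Mef2c was among these. The count took rising courses alone, with no floor and no intensity filter. Genes with dim, noisy probe sets are thus among the 4315, while all 5 of Mef2c passed the filter. This count was also chosen after the values were seen and has no test. The slope was 0.19 ± 0.026 (SE, 5 arrays) on the log2 scale per day, with a limma adjusted p of 0.0651, which does not pass the threshold of 0.05. Over 15 alternatives that p ranged from 0.0406 to 0.269 and was under 0.05 in 2, a stricter intensity filter and a pseudocount in place of the floor. Fitted singly, the 5 probe sets had adjusted p-values from 0.0816 to 0.0883.

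The genes closest to Mef2c were Sp7, Tmem159, Col8a1 and Ctsk. Sp7, which encodes osterix, the osteoblast and late chondrocyte transcription factor, differed by an RMS of 0.087 and read 170.3 at day 2 and then 230.0, 417, 586 and 828. Tmem159, a lipid droplet protein gene, differed by 0.098, Col8a1 by 0.11 and Ctsk, the cathepsin gene of matrix-degrading cells, by 0.12. Mef2c itself was 5.02-fold higher at day 15, and these 4 were between 4.70-fold and 5.14-fold higher. The other probe set of Tmem159 was at the floor on both days.

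Mef2c is also expressed by muscle, endothelial and some blood cells, whose markers were read on the same arrays. Of 16 skeletal muscle markers 4, Acta1, Actc1, Mylpf and Tnnt3, were bright enough to measure. Between days 2 and 15, 1 of them was up by 2-fold or more and 0 were down (16.2% and 11.6% over all genes). This was Tnnt3, at 107 on day 2, 1302 on day 6 and 317 on day 15. Actc1 read 96.1 at day 2, 384 at day 12 and 123 at day 15. Among the dim markers, Des read 17.3 at day 2 and 269 at day 15, and Ckm 144 and 61.2. The sum over all 16, dim ones included, ranged from 1450.2 at day 2 to 2667 at day 6 and was 1965 at day 15. Myf5, Pax7, Myh3 and Myh8 lay below the floor on all 5 days. Of 10 endothelial markers 2 were measured, and the sum over all 10 lay between 812 at day 9 and 1289 at day 2. Pecam1 and Tek lay below the floor throughout. Of 10 macrophage and blood markers 4 were measured, and the sum over all 10 lay between 612 and 1314, highest at day 2. The part of these 3 cell types in the Mef2c course was not tested. Of 8 osteoclast markers 2, Acp5 and Ctsk, were measured. The sum over all 8 was 1205 at day 2 and 5711 at day 15. Most of that sum was Ctsk, at 1010 and 5190, which is also among the genes closest to Mef2c above. Calcr, Ocstamp and Dcstamp were below the floor on all days, and the part of the osteoclast markers in the result was not tested.

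Mef2d, a more widely expressed MEF2 factor, differed little, and its 3 probe sets gave different courses. The brightest (1434487_at) read 575 at day 2 and then 640.0, 759, 870.1 and 724, 1.26-fold higher at the end and at most 1.51-fold. A second (1437300_at) went the other way, with 463, 293, 222, 205 and 330.3, and was down 2.26-fold by day 12. The third (1421388_at) was below the floor at days 6 and 9 and read 193 at day 15, 2.41-fold higher than at day 2. The slope of the brightest was 0.035 ± 0.023 (SE, 5 arrays) per day on the log2 scale, with a limma adjusted p of 0.364. A difference of less than 2-fold between days 2 and 15 was seen in 72.2% of genes. The direction of Mef2d is thus not settled by these arrays.

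The genes closest to the brightest Mef2d probe set were Stxbp4, Cnot6, Krcc1 and Os9, with RMS differences of 0.037 to 0.041. All 4 were between 1.25-fold and 1.33-fold higher at day 15 by their brightest probe sets. Other probe sets were lower, 1 of 4 for Stxbp4, 3 of 4 for Cnot6 and 1 of 2 for Os9. The lowest were 0.813-fold, 0.951-fold and 0.856-fold, and Krcc1 had 1 probe set.

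The remaining MEF2 genes were Mef2a and Mef2b. Mef2a read 1993 at day 2 and then 2360.4, 3340.0, 3781 and 2570, highest at day 12 and 1.29-fold above day 2 at the end. Its 6 probe sets ranged from 0.877-fold to 2.63-fold at day 15. Mef2b read 122 at day 2 and lay below the floor afterwards, so it was dimmer than the filter. Of the 3 MEF2 genes past the filter, Mef2c was the 1 whose brightest probe set was up 2-fold or more at day 15.

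**Figure D4:**
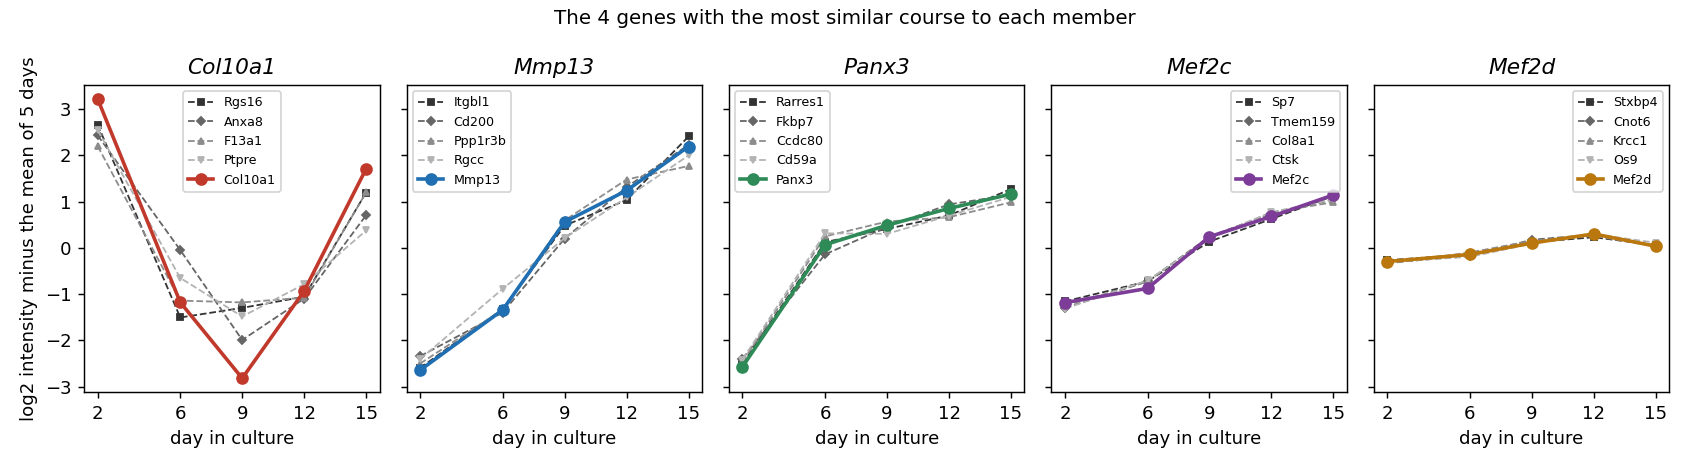
Log2 intensity (floored) minus its mean over the 5 arrays, against day in culture, for each of the 5 genes (thick coloured line) and the 4 genes of most similar course (grey dashed). The curves nearly overlie for Panx3, Mef2c and Mef2d, and no gene follows Col10a1 down to its day 9 value.

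Other genes of hypertrophy were read by role, beginning with matrix and mineralisation. Of 18 genes, 13 could be read alone and 12 of them passed the filter. From day 2 to day 15, 7 of the 12 were up and 3 down by 2-fold or more (16.2% and 11.6% over all genes), with a median log2 difference of 1.60, against 0.00062 over all genes. Ibsp, bone sialoprotein, read 133 at day 2 and then 836, 13297, 23593 and 35026. Alpl, the alkaline phosphatase needed for mineral, read 126, 69.8, 637, 985 and 1640.1, lowest at day 6. Ibsp and Alpl are also among the osteoblast markers summed above, so the lists share their signal. Adamts5, an aggrecanase, was 7.19-fold higher at day 15, and from 1.00-fold, at the floor on both days, to 23.9-fold by its 4 probe sets. Scin, the actin-severing protein scinderin, went the other way, from 1331 at day 2 to 118 at day 12 and 266 at day 15. Scin was the 1 gene of the 12 with a mid-culture trough of 2-fold or more, as in Col10a1, though at day 12.

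Of 11 signalling genes 7 were measured, 2 of them up and 3 down by 2-fold or more between the same days (16.2% and 11.6% over all genes), with a median of 0.55. Pth1r, the receptor for parathyroid hormone-related peptide, read 177 at day 2 and then 799, 1082, 1350 and 2264. Fgfr3, a growth factor receptor that restrains growth plate chondrocytes, was highest at day 6, at 5628, and 4.16-fold lower at day 15 than at day 2. Bmpr1b, a bone morphogenetic protein receptor, read 455, 231, 125, 73.2 and 170, also with a trough. Bmp6, a ligand made by hypertrophic cells, was at least 3.91-fold lower at day 15. Ihh, the hedgehog ligand of prehypertrophic cells, was dimmer than the filter, below the floor on 3 days and 146 at day 15.

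Of 15 activators of hypertrophy 12 were measured, 4 of them up and 0 down by 2-fold or more (16.2% and 11.6% over all genes), with a median of 0.39. Runx2, the main RUNX factor of hypertrophy, was not analysed here. Epas1, a hypoxia-inducible factor that acts on Col10a1 and Mmp13, read 166, 365, 1212, 2382 and 568, with its peak at day 12. Its 2 probe sets disagreed at day 15, at 3.41-fold and 0.827-fold. Dlx5, a homeobox factor, read 11.3 at day 2 and then 217, 511, 490 and 572, at least 7.82-fold higher. Sp7, given above and also among the osteoblast markers, was 4.86-fold higher. Fosl2, an AP-1 subunit, was 2.63-fold higher, and 1.71-fold by its other probe set.

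Of 11 brakes on hypertrophy 10 were measured, 3 of them up and 2 down by 2-fold or more (16.2% and 11.6% over all genes), with a median of 0.35. Sox9, which keeps cells in the chondrocyte state, read 4269 at day 2 and then 2634, 1652, 1157 and 1291. It was 3.31-fold lower at day 15 by its brightest probe set, and a second lay lower too while the third was at the floor on both days. Hdac4, the deacetylase that binds MEF2 factors, read between 111 and 165 on all days and was 1.05-fold lower at day 15 than on day 2, while 1 of its other 2 probe sets was 1.42-fold higher and the remaining 1 lower. Hdac9, of the same class, lay below the floor at days 2 and 6 and read 373 at day 15, at least 5.10-fold higher, against 0.646-fold by its other probe set. Hdac7 dipped to 139 at day 6 and ended 1.69-fold higher, or 0.815-fold by the other probe set. Twist1, a helix-loop-helix factor, was 4.49-fold higher at day 15.

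None of the genes in these 4 role lists had a linear trend at an adjusted p under 0.05 (0 by limma). At an unadjusted p under 0.05, 6 matrix, 2 signalling, 3 activator and 3 brake genes had a rising line, and 2, 3, 0 and 2 a falling line. Over all genes, 14.4% had a rising and 12.7% a falling line at that level. Of the 5 members themselves, 3 were up by 2-fold or more between those end days, 1 was down as much and 1 stayed within 2-fold.

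**Figure D5:**
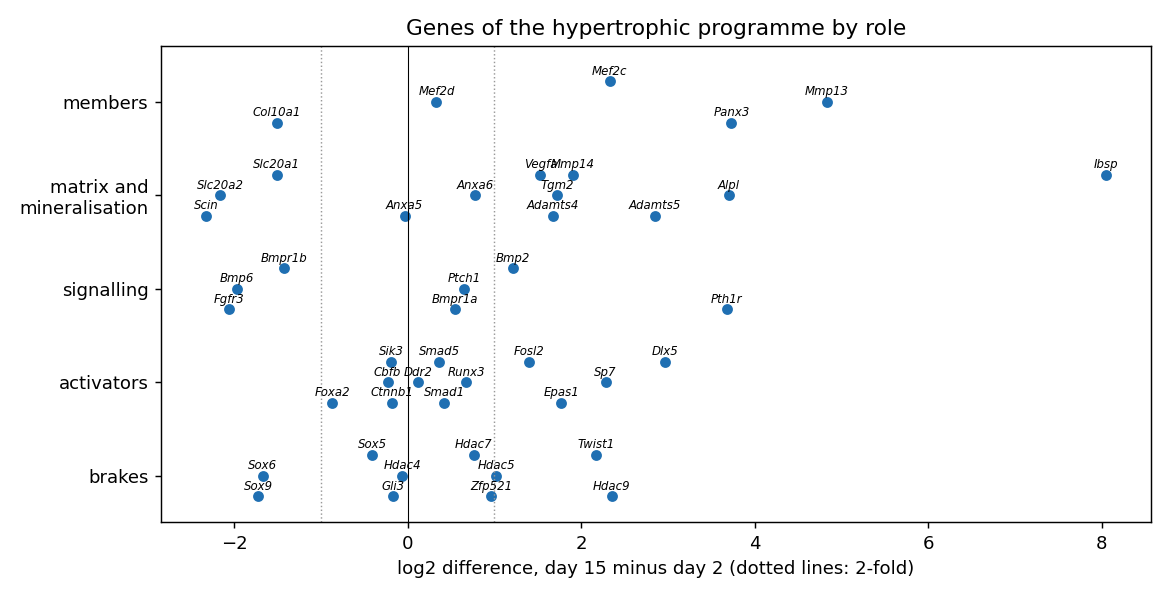
Log2 difference between day 15 and day 2 (horizontal axis, floored intensity) for the 5 members and the measured genes of 4 role lists, 1 point per gene from its brightest probe set and 1 array per day. Vertical offsets within a row only separate labels, and dotted lines mark 2-fold. Ibsp lies farthest right at 8.04, while Col10a1 lies left of 0 beside Slc20a1, Bmpr1b, Sox6 and Sox9. Of the 3 Slc20a1 probe sets the brightest was 2.85-fold lower, and the other 2 were higher, by at most 1.10-fold.

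The span from day 9 to day 15, which starts on the lowest day of Col10a1, set the members apart from each other once more. Over it, Col10a1 was at least 23.1-fold and Mmp13 3.10-fold higher. Mef2c was 1.87-fold and Panx3 1.59-fold higher by their brightest probe sets, and the brightest Mef2d probe set was 1.05-fold lower. Over all genes 5% were up and 4.05% down by 2-fold or more in that interval. Mef2c passed 2-fold by 3 of its 5 probe sets, which ranged from 1.62-fold to 2.32-fold. The Panx3 probe sets were 1.59-fold, 1.49-fold and, for the 1 below the floor at day 9, at least 1.55-fold higher. The other Mef2d probe sets were 1.49-fold and, for the 1 below the floor at day 9, at least 2.64-fold higher.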

How the data were processed

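The members and gene lists were chosen with earlier results of these data known. The authors deposited linear intensities for each probe set, and MAS5 is the one tool in the submitters' processing notes. The trimmed mean (2% off each end) of every array was 500.003, so a change common to most genes cannot show. Gene names came from the platform annotation, updated with an NCBI RefSeq table of GRCm38.p6 (34945 probe sets with 1 symbol, 932 with several, which named no gene). Intensities below 73.1 were raised to that floor before log2. Genes were kept where the mean of the brightest probe set reached 105.93, the median over all but control probe sets. The linear trend on day was fitted by lmFit and eBayes of limma 3.58.1 under R 4.3.3 (a two-sided test with 3 residual and 2.83 prior degrees of freedom, Benjamini-Hochberg over 11075 genes) and was tested on simulated data. The simulated courses were straight lines with independent noise, so they cannot show how the fit handles bent courses. Differences between days were counted at 2-fold with no test, and the number of arrays limits the precision. Named genes were all members, their family relatives, the 4 genes of largest range in each role list that passed the filter and the 4 most similar genes per member. Hdac4, Ihh, Runx2, Nudt6, Stc2, Evi2a, Slc20a1, Sox6 and the markers were named besides, after their values were seen. Promoters came from RefSeq. Other steps used Python 3.11.15, pandas 2.3.3, numpy 2.4.6 and matplotlib 3.10.9.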

Additional observations from a re-analysis of the deposited data

How the results depend on the processing

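No paired analysis was possible because each day had 1 array. The count of genes with a linear trend, 6, was 4 with quantile normalization or the mean over probe sets and 9 with the floor at the 20th percentile. It was 13 with median centring, 88 with a pseudocount, 204 with a filter at the 70th percentile, and 0 with the floor at the 60th percentile, every probe set fitted singly, no filter or the rank of the day. It was 0 with any 1 array left out, where 1440 to 3297 genes had an unadjusted p under 0.05. The count at least 2-fold different at day 15, 3081, was 5345 over every probe set and 1942 with the stricter filter, and 1614 to 3081 with 1 array left out, where the lowest is day 15 against day 6, the count without day 15 is of day 12 against day 2 (3049), and leaving out a middle day cannot change it. Col10a1 changed sign without day 2, where its slope was 0.35 and the difference of day 15 from day 6 was 2.89. Over the arrays left out in turn, its slope ranged from -0.45 to 0.35 and its difference of last from first day from -4.15 to 2.89. The Mmp13 slope kept its direction throughout but its adjusted p was 0.0571 with quantile normalization, 0.0677 over every probe set, 0.0604 with the rank of the day, 0.0950 with the higher floor and 0.120 with no filter. The slopes of Panx3, Mef2c and Mef2d by their brightest probe sets, or the mean over probe sets, kept their sign in all 15 alternatives, while another Mef2d probe set had a slope of -0.050. Median centring moved the median of all genes by 0.14 on the log2 scale between days 2 and 15, and no member changed sign with it. The alternatives for the Col10a1 trough were chosen after seeing the data. Signal near the floor limits Col10a1 at day 9, Mef2b, Panx2 and the dim probe sets.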
